A study of Mus musculus with 45 samples.

Results

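Cytochrome c oxidase, complex IV of the mitochondrial respiratory chain, passes electrons from cytochrome c to oxygen. Its catalytic core is made of subunits encoded by the mitochondrial genome (mt-Co1, mt-Co2 and mt-Co3), and the remaining subunits are encoded in the nucleus and imported. GABPA, the DNA-binding subunit of the ETS-family factor GABP, is also known as nuclear respiratory factor 2, and promoters of nuclear cytochrome c oxidase subunits are among its classical targets. The genes described here are the 10 nuclear subunits in their ubiquitous forms, *Cox4i1*, *Cox5a*, *Cox5b*, *Cox6a1*, *Cox6b1*, *Cox6c*, *Cox7a2*, *Cox7b*, *Cox7c* and *Cox8a*, taken by symbol from the 55385 genes of each RNA table. All 10 were found and all 10 passed the filter on low counts at every stage.

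Mouse embryos homozygous for a degron-tagged *Gabpa* allele (*Gabpa*-dTAG/dTAG) were given the degrader dTAG13 at 1 μM or the DMSO vehicle and collected as late 2-cell embryos (treated from 6 to 30 hours post fertilization, 3 libraries a group), morulae (treated from 42 hours post fertilization, 2 libraries a group) or E4.5 ICM (treated from 84 to 100 hours post fertilization, 2 a group). The paper places this ICM collection at the mid-blastocyst stage, and the label E4.5 is kept here. ES-E14 cells with the same tag, from a single clone and grown in 2i/LIF medium, were given 0.5 μM dTAG13 for 24 hours or DMSO (2 libraries a group). Every group, controls included, carries the tagged alleles, and the ICM was isolated by immunosurgery and so holds both epiblast and primitive endoderm. dTAG13 removes the protein, not the transcript, and *Gabpa* mRNA was higher in each dTAG13 library than in any DMSO library of its stage (mean TPM of 103 against 153 at the late 2-cell stage and of 10.6 against 27.4 in the ICM), so RNA tables are no check of protein loss. The labels do not tie replicates to separate litters or cultures, and p-values then measure only the spread between these libraries.

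Libraries held from 9457933 to 27660132 expected counts, and a member had from 928 to 60739 of them. RSEM's own uncertainty of a member's count, its posterior SD, was at most 0.691% of the count. ICM replicates were close to sampling noise: the median chi-square between the 2 libraries of a group was 1.62 (DMSO) and 1.69 (dTAG13) times that of sampling alone, against 2.86 to 16.2 times in the other groups, and ICM calls are therefore given beside those of a fit in which all 18 libraries share 1 estimate of the spread. ICM libraries with dTAG13 also held more RNA of trophectoderm markers: the summed TPM of 9 trophectoderm markers was 70.2 to 75.9 with DMSO and 783 in both dTAG13 libraries, and all 9 were higher, while all 9 epiblast markers were lower (828 to 849 against 485 to 493). With the shared spread these counts were 9 and 7. The sum of 6 primitive endoderm markers was 234 to 242 TPM with DMSO and 310 TPM with dTAG13, with 2 lower and 3 higher, or 0 and 2 with the shared spread. Late 2-cell libraries held 1340 to 1360 TPM of 5 oocyte markers with DMSO and 1710 to 1940 TPM with dTAG13, and 3.46 to 5.41 against 6.44 to 11.4 TPM of 5 cumulus cell markers, both without overlap. Of these *Oosp1* (log2 fold change 0.39, adjusted p = 0.0201) and *Tnfaip6* (0.96, adjusted p = 0.0407) passed the threshold, and *Inhba* and *Ptx3* were at 0 with DMSO. In 2iES cells the sum of the epiblast markers was 540 to 651 against 402 to 440 TPM, with 3 of the 9 lower and 1 higher (28.1% and 26.5% of all genes). The part of these differences in the results below was not tested, and in these bulk samples fewer cells of a type and less RNA per cell cannot be told apart. For the ICM, the paper reports that epiblast cell number did not yet differ between treatments at this collection time. Among the 2iES libraries, genes of the mitochondrial genome took 0.93% and 5.47% of the TPM with DMSO and 10.8% and 9.58% with dTAG13.

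GABPA binds ETS motifs, and the form searched for here was CGGAAG. The RefSeq promoter table (GRCm38.p6, 250 bases before to 50 after a gene's start) held 8 of the 10 members, without *Cox4i1* and *Cox6c*. CGGAAG on either strand was in 6 of these 8 windows and in 16.9% of the 32851 windows of the table. The longer form CCGGAAG, each match of which also holds CGGAAG, was in 3 of 8 (*Cox6a1*, *Cox6b1* and *Cox8a*) and in 8.86% of all windows. *Cox7b* and *Cox7c* had no match to CGGAAG in this window. Other forms of the ETS motif were not searched for, and this says nothing about binding elsewhere. The last 180 bases of 6 windows are shown 5′ to 3′ on the gene's strand, from 130 bases before the start to 50 after it, with CGGAAG or its reverse complement in capitals. *Cox6b1*, *Cox7a2*, *Cox5b* and *Cox8a* are shown because they were lower with dTAG13 in the ICM by the largest amounts, *Cox6a1* because it holds the longer motif and changed little there, and *Cox7b* because it holds no match and was not lower at any stage.
Cox6b1 (chr7:30626065-30626244, minus strand): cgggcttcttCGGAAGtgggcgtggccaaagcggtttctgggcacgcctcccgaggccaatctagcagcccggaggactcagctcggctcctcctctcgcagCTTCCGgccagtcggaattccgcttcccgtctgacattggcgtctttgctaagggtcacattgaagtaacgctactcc
Cox7a2 (chr9:79759804-79759983, minus strand): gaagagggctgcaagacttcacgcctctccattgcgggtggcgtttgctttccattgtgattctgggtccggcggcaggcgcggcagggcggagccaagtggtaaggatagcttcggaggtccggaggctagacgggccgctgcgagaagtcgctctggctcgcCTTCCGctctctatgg
Cox5b (chr1:36691357-36691536, plus strand): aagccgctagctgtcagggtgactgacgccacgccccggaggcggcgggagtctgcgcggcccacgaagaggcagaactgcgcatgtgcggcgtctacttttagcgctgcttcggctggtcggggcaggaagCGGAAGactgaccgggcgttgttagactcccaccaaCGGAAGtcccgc
Cox8a (chr19:7217567-7217746, minus strand): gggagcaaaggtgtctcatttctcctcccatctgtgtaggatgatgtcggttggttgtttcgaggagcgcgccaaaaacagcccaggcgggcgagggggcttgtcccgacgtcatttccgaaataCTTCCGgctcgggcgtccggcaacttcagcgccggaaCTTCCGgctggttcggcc
Cox6a1 (chr5:115348909-115349088, minus strand): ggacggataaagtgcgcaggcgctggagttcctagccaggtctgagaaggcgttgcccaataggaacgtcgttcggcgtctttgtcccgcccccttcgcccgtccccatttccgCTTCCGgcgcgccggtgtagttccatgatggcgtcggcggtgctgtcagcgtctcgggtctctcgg
Cox7b (chrX:106015570-106015749, plus strand): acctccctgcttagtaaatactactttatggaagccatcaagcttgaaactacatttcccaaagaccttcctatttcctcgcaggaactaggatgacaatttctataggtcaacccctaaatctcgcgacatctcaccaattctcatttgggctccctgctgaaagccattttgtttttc
Starts here are those of RefSeq. The gene spans given further below follow another annotation, and for *Cox6b1*, *Cox7a2* and *Cox5b* they begin farther upstream. The first base of the match lies 120 and 28 bases before the start in *Cox6b1*, 16 before it in *Cox6a1*, at bases 3 and 39 of the transcript in *Cox5b* and at base 35 in *Cox7a2*. *Cox8a* holds 1 match beginning 5 bases before the start and 1 at base 33. A match is a stretch of letters and was not tested for binding here.

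In DMSO embryos the subunits were abundant at every stage, and their order changed with development. TPM is used for levels because it divides by transcript length, so that genes can be compared. In DMSO late 2-cell embryos *Cox8a*, one of the small membrane subunits, stood highest (1326 to 1433 TPM over 3 libraries), followed by *Cox7a2* (935 to 1099 TPM). *Cox5a*, *Cox5b*, *Cox4i1* and *Cox6a1* came next with means of 626, 602, 558 and 520 TPM, and each of these overlapped its neighbour in the order. *Cox7c*, *Cox7b*, *Cox6c* and *Cox6b1* were lowest, between 318 and 428 TPM on average, again with overlapping neighbours. From the morula on *Cox6c* and *Cox7c* led in embryos (means of 2817 and 1938 TPM in morulae and 2917 and 2365 TPM in the ICM), and *Cox7b* was the lowest member in morulae, ICM and 2iES cells (559, 991 and 926 TPM), overlapping *Cox6b1* in 2iES cells. In 2iES cells *Cox4i1*, which carries the allosteric ATP site of the enzyme, was highest with 2661 and 3322 TPM and overlapped *Cox7c* with 2271 and 2684 TPM.

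**Figure D1:**
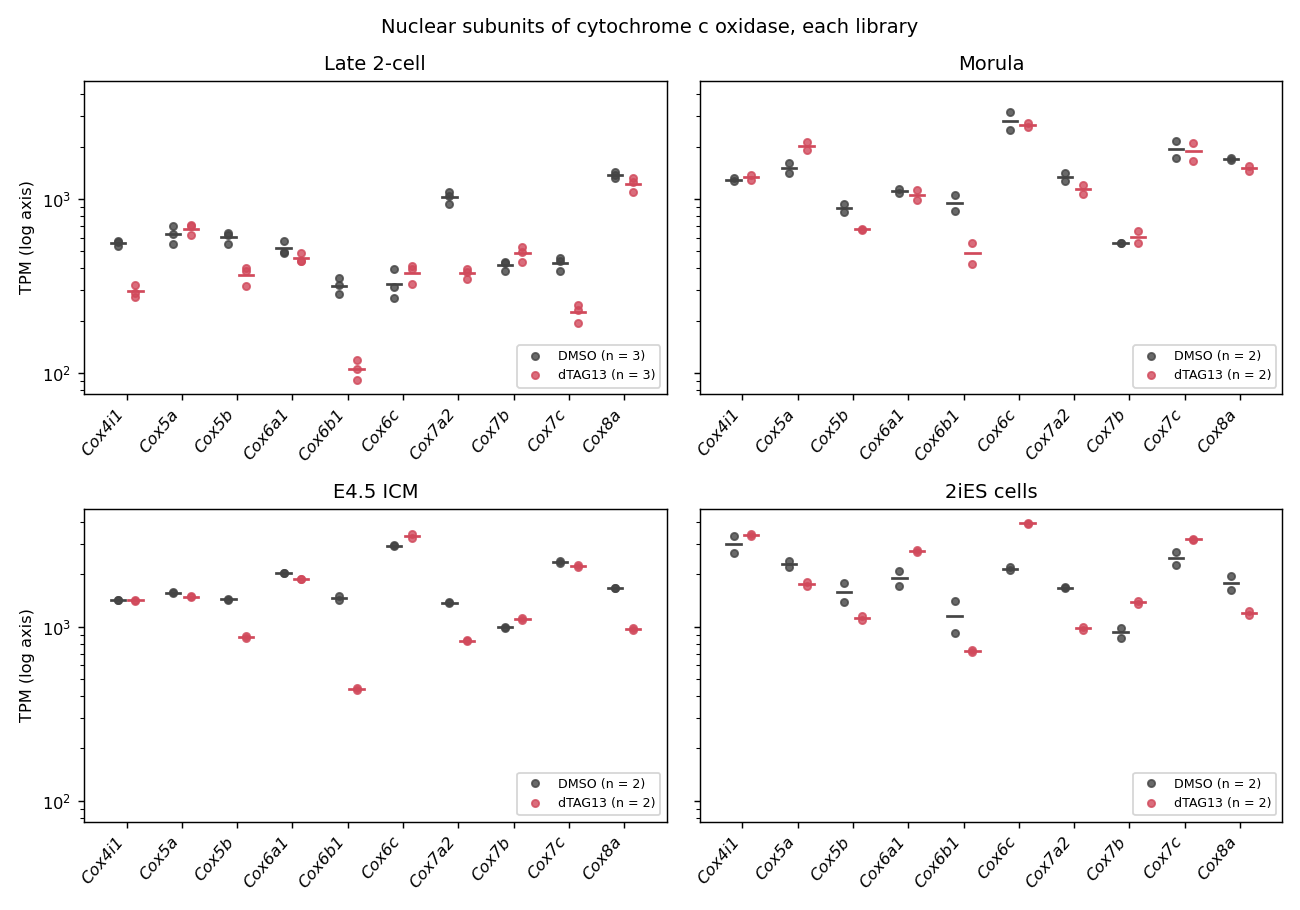
TPM of the 10 nuclear subunits in each library, on a log axis, by stage and treatment (points, libraries; lines, group means). At the late 2-cell stage the 3 dTAG13 libraries of Cox6b1 (91.8 to 119 TPM), Cox7a2, Cox4i1, Cox7c and Cox5b all lie below the DMSO libraries, and in the ICM those of Cox6b1 (435 and 443 TPM) lie farthest below. Late 2-cell libraries of Cox6a1 and Cox8a with dTAG13 also lie below, narrowly.

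All 10 members rose from the late 2-cell stage to the morula in DMSO embryos, by log2 differences from 0.68 for *Cox7b* to 3.49 for *Cox6c*. *Cox6c* had 270, 312 and 397 TPM in late 2-cell libraries and 2478 and 3157 TPM in morulae (SE, the standard error of the log2 difference, 0.192, adjusted p = 1.39e-07 by quasi-likelihood in edgeR, Benjamini-Hochberg over all genes). *Cox7c* followed with a log2 difference of 2.61 and *Cox6b1* with 1.92. Of all 17990 genes tested, 30.4% were higher in morulae, and the median gene was lower by a log2 difference of 0.37. Beyond the morula the comparison of levels depended on scaling, and which members passed also depended on single libraries. With TMM scaling 5 members fell from morula to ICM (*Cox8a* by 0.64, *Cox6c* by 0.56, *Cox5a* and *Cox7a2* by 0.53 and *Cox4i1* by 0.35 on the log2 scale) and *Cox7b* rose by 0.39, where 30.3% of genes were lower and 31.4% higher. With library totals alone 1 member fell and 3 rose, and with log2(TPM + 1) none fell, 4 rose, and *Cox4i1*, *Cox5a*, *Cox6c* and *Cox7a2* changed sign. Between ICM and 2iES cells 8 members were higher in 2iES cells with TMM scaling, against 31.3% of genes, and 3 (*Cox4i1*, *Cox5a* and *Cox7a2*) with log2(TPM + 1). Stage, collection and library preparation cannot be told apart in these comparisons.

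With dTAG13 at the late 2-cell stage, 5 of the 10 members fell and none rose at an adjusted p under 0.05, where 7.24% of the 17421 genes tested were lower and 1.32% higher. Of all calls at this stage 84.6% were decreases, against 74.4% with library totals alone and 66.5% with upper quartile scaling. *Cox6b1*, which joins the monomers of the enzyme on the side facing the intermembrane space, changed most. DMSO libraries held 319, 285 and 350 TPM of it, dTAG13 libraries 119, 106 and 91.8 TPM. The groups were far apart, with the highest dTAG13 library well under the lowest DMSO library. The log2 fold change was -1.65 (SE 0.122, adjusted p = 1.71e-05, edgeR). *Cox7a2*, the ubiquitous form of subunit 7a, had 935, 1039 and 1099 TPM with DMSO and 395, 345 and 383 TPM with dTAG13. It fell by 1.49 on the log2 scale (SE 0.089, adjusted p = 6.64e-06). Both passed the cut-offs of the study (2-fold or more at an adjusted p under 0.05 and a mean FPKM of 1, read here as the mean of the higher group), which 3.63% of genes passed downwards.

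*Cox4i1*, *Cox7c* and *Cox5b* fell less. *Cox4i1* had 540 to 570 TPM with DMSO and 275 to 322 TPM with dTAG13, a log2 fold change of -0.96 (SE 0.089, adjusted p = 6.38e-05). *Cox7c*, a small subunit of the membrane part, had 387 to 458 TPM and 193 to 247 TPM, a log2 fold change of -0.97 (SE 0.105, adjusted p = 0.000199). Both stood just inside a fold change of 2, and without dTAG13 replicate 1 both exceeded it, so that 4 members passed the study's cut-offs in place of 2. *Cox5b*, which binds zinc on the matrix side, had 551, 639 and 618 TPM with DMSO and 386, 401 and 318 TPM with dTAG13. It fell by 0.64 on the log2 scale (SE 0.125, adjusted p = 0.0084).

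The other 5 late 2-cell subunits did not pass the threshold. *Cox6a1* and *Cox8a* had log2 fold changes of -0.25 and -0.23 (95% intervals -0.48 to -0.02 and -0.44 to -0.03, adjusted p = 0.192 and 0.175). Their dTAG13 libraries lay narrowly below those with DMSO (441 to 490 against 492 to 571 TPM and 1099 to 1323 against 1326 to 1433 TPM). For *Cox5a*, *Cox6c* and *Cox7b* the fold changes were 0.05, 0.15 and 0.14 and their libraries overlapped between the groups. The intervals of these 3 reached down to -0.14, -0.17 and -0.11, above the interval of *Cox6b1*, which ran from -1.92 to -1.38. The sum over the 10 members went from 6199 ± 329 TPM (SD, n = 3) with DMSO to 4587 ± 46.8 TPM (SD, n = 3) with dTAG13.

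In morulae no member passed the threshold in either direction, where 0.205% of the 13667 genes tested were lower and 0.161% higher and 0.198% passed the study's cut-offs downwards. At an unadjusted p under 0.05 there were 2, *Cox6b1* and *Cox5a*. *Cox6b1* had 1051 and 849 TPM with DMSO and 422 and 560 TPM with dTAG13, without overlap. Its log2 fold change was -0.90 (SE 0.217, 95% interval -1.36 to -0.43, adjusted p = 0.101). Fits with library totals, no filter, a replicate block or all 18 libraries did call it lower. DESeq2 called 1 member lower and that was *Cox6b1* (adjusted p = 0.0158), and over the 16 alternative fits of this gene the adjusted p ran from 0.00209 to 1. *Cox5a*, a subunit on the matrix side, went the other way with 1411 and 1602 TPM against 1899 and 2121 TPM, a log2 fold change of 0.42 (adjusted p = 0.356). *Cox7a2*, which had fallen at the late 2-cell stage, had a log2 fold change of -0.24 with an interval from -0.65 to 0.18.

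In the E4.5 ICM 7 members fell and 2 rose at an adjusted p under 0.05, but 38.5% of the 15840 genes tested were lower there and 38.4% higher. With the spread shared over all 18 libraries 4 members fell, *Cox6b1*, *Cox8a*, *Cox7a2* and *Cox5b*, and none rose, where 16.8% of the 21915 genes tested were lower and 13.7% higher. The same 4 were the only members past the threshold in a test against a fold change of 1.5, which 21.3% of genes passed downwards. *Cox6b1* had 1423 and 1507 TPM with DMSO and 435 and 443 TPM with dTAG13. These values lie far apart, and it was the only member to pass the study's cut-offs, which 13.2% of genes passed downwards. Its log2 fold change was -1.77 (SE 0.029, adjusted p = 2.23e-35).

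*Cox8a* had 1663 and 1671 TPM with DMSO and 956 and 978 TPM with dTAG13, a log2 fold change of -0.81 (SE 0.026). *Cox7a2* had 1387 and 1361 TPM against 827 and 834 TPM, a log2 fold change of -0.72, and *Cox5b* had 1432 and 1442 TPM against 880 and 857 TPM, a log2 fold change of -0.71. In all 3 the groups were far apart. *Cox5a*, *Cox6a1* and *Cox7c* changed by -0.11, -0.14 and -0.12 on the log2 scale and *Cox6c* and *Cox7b* by 0.14 and 0.07. With the shared spread these 5 did not pass the threshold, and their adjusted p ran from 0.476 to 0.702. *Cox4i1* stood at 1422 and 1415 TPM with DMSO and at 1408 and 1426 TPM with dTAG13, with an interval of the log2 fold change from -0.08 to 0.02.

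In 2iES cells the members divided, with 4 lower and 5 higher at an adjusted p under 0.05, where 28.1% of the 15511 genes tested were lower and 26.5% higher. None passed the study's cut-offs downwards, as 15.6% of genes did. *Cox7a2* had 1658 and 1698 TPM with DMSO and 963 and 993 TPM with dTAG13, well apart, a log2 fold change of -0.65 (SE 0.093, adjusted p = 0.00149). *Cox8a* fell by 0.47 and *Cox5a* by 0.27 on the log2 scale (adjusted p = 0.0122 and 0.0463). *Cox6b1* had 917 and 1397 TPM with DMSO and 739 and 712 TPM with dTAG13, a log2 fold change of -0.63 (SE 0.202, adjusted p = 0.0351) that ran from -0.96 to -0.30 with a library left out, and the 2 DMSO libraries differed from each other by more than the lower of them differed from the dTAG13 libraries. *Cox5b* had a log2 fold change of -0.29 (adjusted p = 0.127). With dTAG13 replicate 1 or 2 left out, *Cox7a2* was the only member lower at the threshold, and library totals without genes of the mitochondrial genome, a scaling chosen after seeing the data, gave 2 members lower and 5 higher.

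The largest increase in 2iES cells was that of *Cox6c*, from 2115 and 2196 TPM to 3940 and 3903 TPM, a log2 fold change of 0.97 (SE 0.09, adjusted p = 0.000268). The values of each group lay close together and far from the other group. *Cox6a1* rose by 0.61 (adjusted p = 0.00408), *Cox7b* by 0.55 (adjusted p = 0.00313) and *Cox7c* by 0.43 (adjusted p = 0.0162) on the log2 scale. *Cox4i1*, at a log2 fold change of 0.32, passed narrowly (adjusted p = 0.0494) and its libraries overlapped. Its value ran from 0.15 to 0.44 with a library left out. The sum over the members was 18934 ± 561 TPM (SD, n = 2) with DMSO and 20316 ± 274 TPM (SD, n = 2) with dTAG13.

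**Figure D2:**
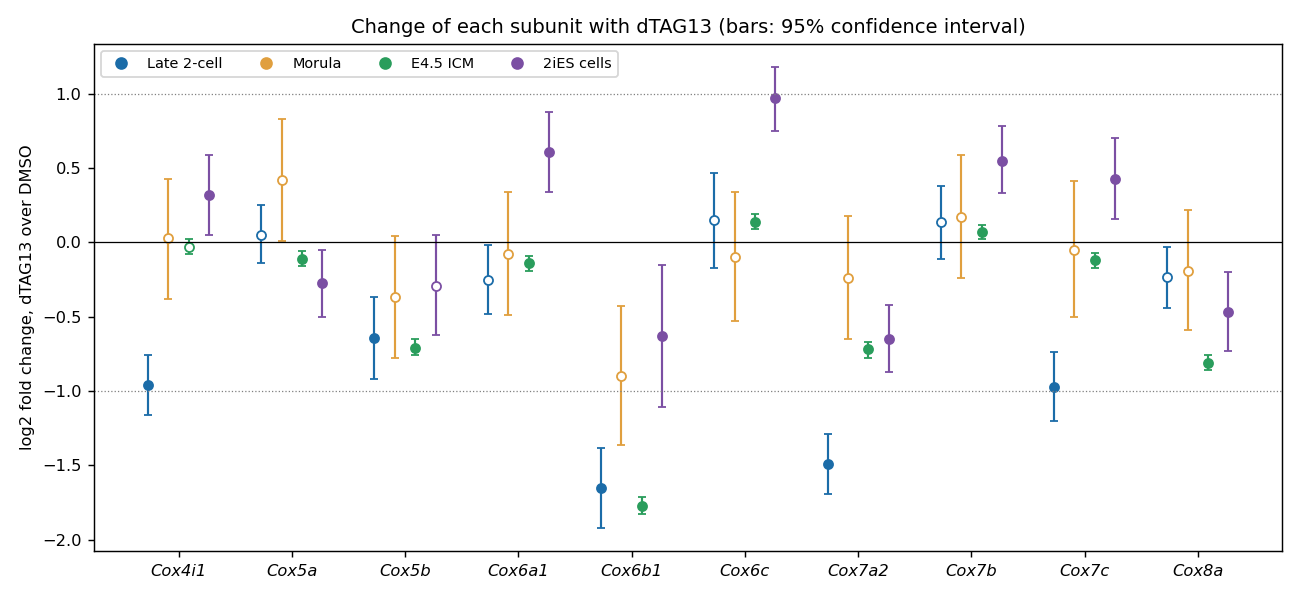
Log2 fold change of each subunit with dTAG13 over DMSO at the 4 stages, from edgeR, with its 95% confidence interval (filled points, adjusted p under 0.05; open points, not; dotted lines, a fold change of 2). Cox6b1 lies lowest or nearly so at every stage, from -1.77 in the ICM to -0.63 in 2iES cells, and Cox6c reaches 0.97 in 2iES cells.

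A test of the difference between stages shares 1 spread per gene over both stages. Its SE can thus fall below that of 1 stage alone (for *Cox4i1* 0.165, late 2-cell less morula, against 0.189 in morulae). The change with dTAG13 differed between stages for several members when the difference itself was tested. Between late 2-cell embryos and morulae it differed for *Cox7a2*, *Cox4i1* and *Cox7c*, each lower at the late 2-cell stage, where 3.16% of genes differed. The difference of *Cox7c* passed the threshold in 6 of 16 alternative fits, and those of *Cox7a2* and *Cox4i1* in all 16. Between late 2-cell embryos and ICM, with 22.5% of genes differing, *Cox4i1*, *Cox7c* and *Cox7a2* fell more at the late 2-cell stage and *Cox8a* fell more in the ICM (difference 0.59, SE 0.126, adjusted p = 0.00716). *Cox6b1* and *Cox5b* were not told apart between these 2 stages, with differences of 0.13 (95% interval -0.19 to 0.45) and 0.07 (-0.30 to 0.44). Between morulae and ICM 3 members differed (*Cox6b1*, *Cox8a* and *Cox5a*, each lower in the ICM), against 29.1% of genes, but none did when any 1 of the 4 ICM libraries was left out. Between ICM and 2iES cells 8 members differed, against 41.9% of genes, all in the direction of a lower value in the ICM. Over 14 alternative fits *Cox4i1* and *Cox8a* passed in 5 and *Cox5b* in 4. *Cox7a2* was not told apart there, with a difference of -0.10 (95% interval -0.31 to 0.11).

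Subunits 4, 6a, 6b, 7a, 7b and 8 have alternative forms that replace the ubiquitous one in muscle, lung or testis, and the late 2-cell stage held one of them in quantity. *Cox6b2*, the testis form of subunit 6b, had 713, 775 and 762 TPM with DMSO at the late 2-cell stage, above *Cox6b1* in every library. *Cox6b1* made up 29.8% ± 2.51 (SD, n = 3) of the pair. With dTAG13 *Cox6b2* had 748, 911 and 874 TPM (log2 fold change 0.11, adjusted p = 0.646), and the share of *Cox6b1* was 11.2% ± 2.19 (SD, n = 3). The summed level of the pair went from 1068 ± 40.5 TPM to 950 ± 76.2 TPM (SD, n = 3). From the morula on *Cox6b2* was a minor form (39.4 and 38.9 TPM in DMSO morulae, 45.8 and 44.4 TPM in DMSO ICM), and the pair followed *Cox6b1*: in the ICM its sum went from 1510 ± 58.3 TPM to 508 ± 15.7 TPM (SD, n = 2). Expected counts scaled to library totals, which are not divided by length, gave late 2-cell shares of 35% and 13.9% for *Cox6b1* with DMSO and dTAG13.

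*Cox7a1*, the heart and muscle form of subunit 7a, was the only other alternative form above 20 TPM. It took 2.73% of its pair with *Cox7a2* in DMSO late 2-cell embryos and 8.69% with dTAG13, and 10.9% and 22.8% in 2iES cells, where it rose from 194 and 218 TPM to 289 and 290 TPM (log2 fold change 0.62, adjusted p = 0.00533). In the ICM it had a log2 fold change of 0.27 (adjusted p = 0.000164, or 0.32 with the shared spread). *Cox7b2*, a testis form of subunit 7b, was low at the late 2-cell stage and fell there from 14.8, 13.7 and 12.4 TPM to 1.16, 0 and 0.68 TPM (log2 fold change -4.52, SE 0.67, adjusted p = 0.00158). *Cox4i2* (9.02 to 10.7 TPM with DMSO) and *Cox8c* (9.72 to 11.3 TPM) were detected at the late 2-cell stage and at most at 1.51 TPM later, *Cox6a2* reached at most 3.51 TPM, and *Cox8b* was listed at 0 in all 18 libraries.

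**Figure D3:**
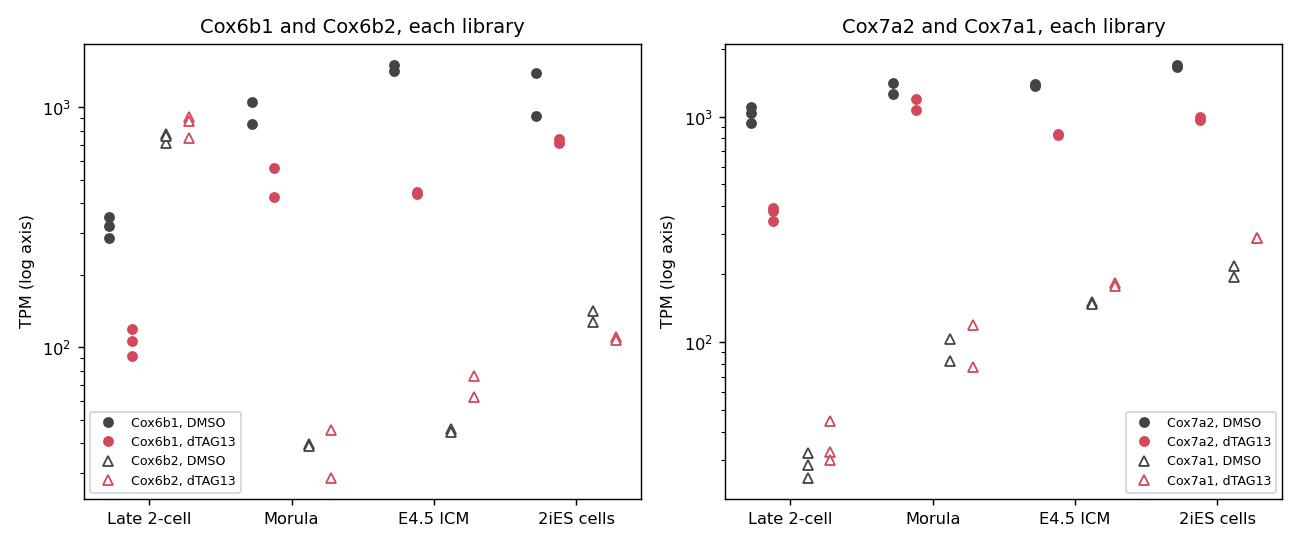
TPM of Cox6b1 with its testis form Cox6b2 (left) and of Cox7a2 with its muscle form Cox7a1 (right) in each library, on a log axis, by stage. At the late 2-cell stage Cox6b2 (713 to 911 TPM) lies above Cox6b1 with both treatments, and from the morula on it lies below.

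None of the 3 mitochondrially encoded core subunits fell past the threshold at any stage. Summed over *mt-Co1*, *mt-Co2* and *mt-Co3*, late 2-cell libraries held 18312, 17605 and 15637 TPM under DMSO against 19230, 22159 and 19798 TPM under dTAG13, and none of the 3 genes passed the threshold (log2 fold changes 0.11, 0.16 and 0.61). The assignment of reads to *mt-Co3* was uncertain, with a posterior SD from RSEM of 11.9% to 85.9% of its count in a library, against at most 1.8% for the other two. In morulae the log2 fold changes were -0.34, -0.40 and 0.16 and none passed. In the ICM *mt-Co1* and *mt-Co2* had log2 fold changes of 0.36 each (adjusted p = 4.09e-19 and 1.43e-19, but 0.581 and 0.585 with the shared spread) and *mt-Co3* had a log2 fold change of 0.03. ICM libraries held 3670 and 3620 TPM of *mt-Co1* with DMSO and 4915 and 4746 TPM with dTAG13. The shared spread also takes in the DMSO libraries of 2iES cells, with 297 and 1785 TPM of *mt-Co1*. In 2iES cells the 2 DMSO libraries themselves differed, with sums of 1171 and 7216 TPM against 16374 and 14423 TPM with dTAG13. There *mt-Co1* passed the threshold (log2 fold change 2.11, SE 0.706, adjusted p = 0.0402) and *mt-Co2* and *mt-Co3* did not (adjusted p = 0.0594 and 0.0525). The ratio of the core transcripts to the nuclear subunits ran from 2.39 to 3.11 in DMSO late 2-cell libraries, and from 4.17 to 4.89 with dTAG13. It was 0.659 and 0.672 against 0.529 and 0.571 in morulae, 0.757 and 0.737 against 1.16 and 1.12 in the ICM and 0.0606 and 0.389 against 0.814 and 0.703 in 2iES cells, so that it was lower with dTAG13 in morulae and higher at the other stages, without overlap.

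**Figure D4:**
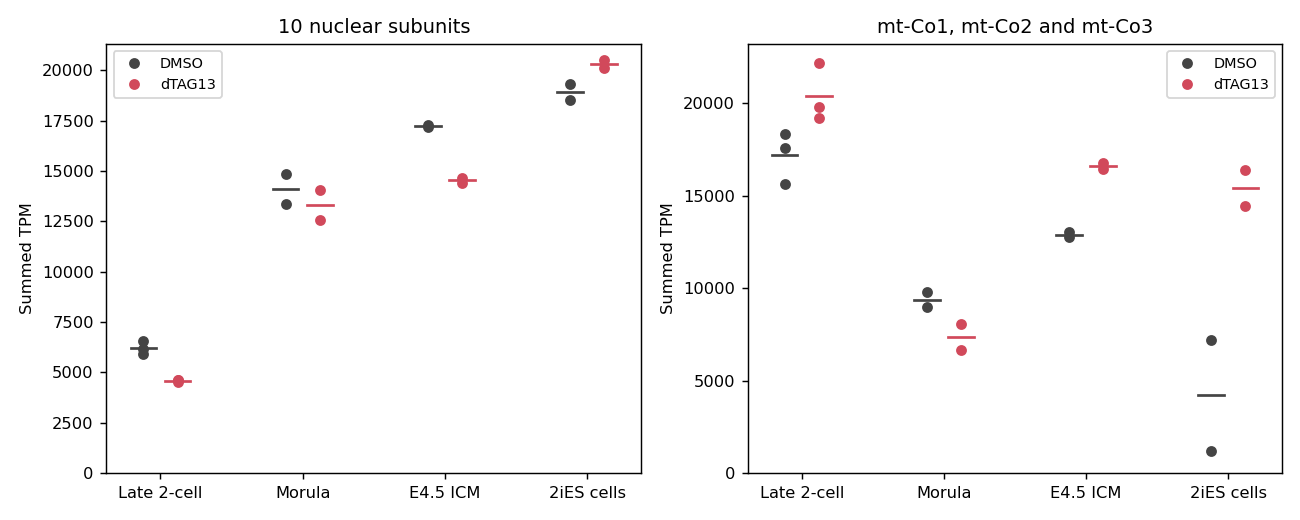
Summed TPM of the 10 nuclear subunits (left) and of mt-Co1, mt-Co2 and mt-Co3 (right) in each library, by stage and treatment (points, libraries; lines, group means). The nuclear sum is lower with dTAG13 at the late 2-cell stage (4533 to 4616 against 5889 to 6544 TPM) and in the ICM, and the mitochondrial sum of 2iES cells spreads from 1171 to 7216 TPM between the DMSO libraries.

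Assembly factors insert the copper and heme groups and join the subunits, and of 26 such genes 25 were tested at the late 2-cell stage and 26 later. In late 2-cell embryos 10 fell and none rose, where 7.24% of all genes were lower, with a median log2 fold change of -0.39 beside -0.45 for the 10 subunits and 0.024 for all genes. *Surf1*, needed for heme insertion into mt-Co1, fell from 45.2, 65.8 and 57.1 TPM to 4.49, 3.76 and 5.46 TPM (log2 fold change -3.62, adjusted p = 6.98e-06), *Cox16* by 3.00 and *Coa5* by 2.18 on the log2 scale. Of the exonic bases of *Cox16* 56.8% lie in a second annotated gene on the same strand, and its counts are uncertain. In morulae none of the 26 passed in either direction. In the ICM 13 fell and 6 rose (38.5% and 38.4% of all genes), or 8 and 2 with the shared spread (16.8% and 13.7%), led by the copper chaperone *Sco1* (-2.41), *Surf1* (-1.77) and *Coa4* (-1.5) and by *Tmem177* (1.12), *Cmc2* (0.41) and *Apopt1* (0.30), of which *Apopt1* did not pass with the shared spread (adjusted p = 0.195). In 2iES cells 13 fell and 2 rose (28.1% and 26.5% of all genes), with a median of -0.43 beside 0.02 for the subunits and 0.03 for all genes. *Surf1* (-2.95), *Sco1* (-2.57) and *Coa4* (-2.30) led again, and *Tmem177* (0.75) and *Sco2* (0.67) rose, of which *Sco2* shares 68.3% of its exonic bases with *Tymp*.

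The nuclear subunits of the other complexes gave the following counts, to be read against all genes (7.24% lower and 1.32% higher at the late 2-cell stage, 38.5% and 38.4% in the ICM, 28.1% and 26.5% in 2iES cells). Of 37 complex I subunits, 9 fell and none rose at the late 2-cell stage, none passed in morulae, 17 fell and 16 rose in the ICM, and 12 fell and 12 rose in 2iES cells. Of 13 subunits of complexes II and III, 6 fell at the late 2-cell stage, 7 fell and 4 rose in the ICM, and 6 fell and 1 rose in 2iES cells. Of 17 ATP synthase subunits, 8 fell at the late 2-cell stage, 9 fell and 5 rose in the ICM, and 10 fell and 3 rose in 2iES cells. With the shared spread the ICM counts were 8 lower and 6 higher for complex I, 2 and 0 for complexes II and III and 4 and 0 for ATP synthase. The medians at the late 2-cell stage were -0.14, -0.43 and -0.18 on the log2 scale.

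**Figure D5:**
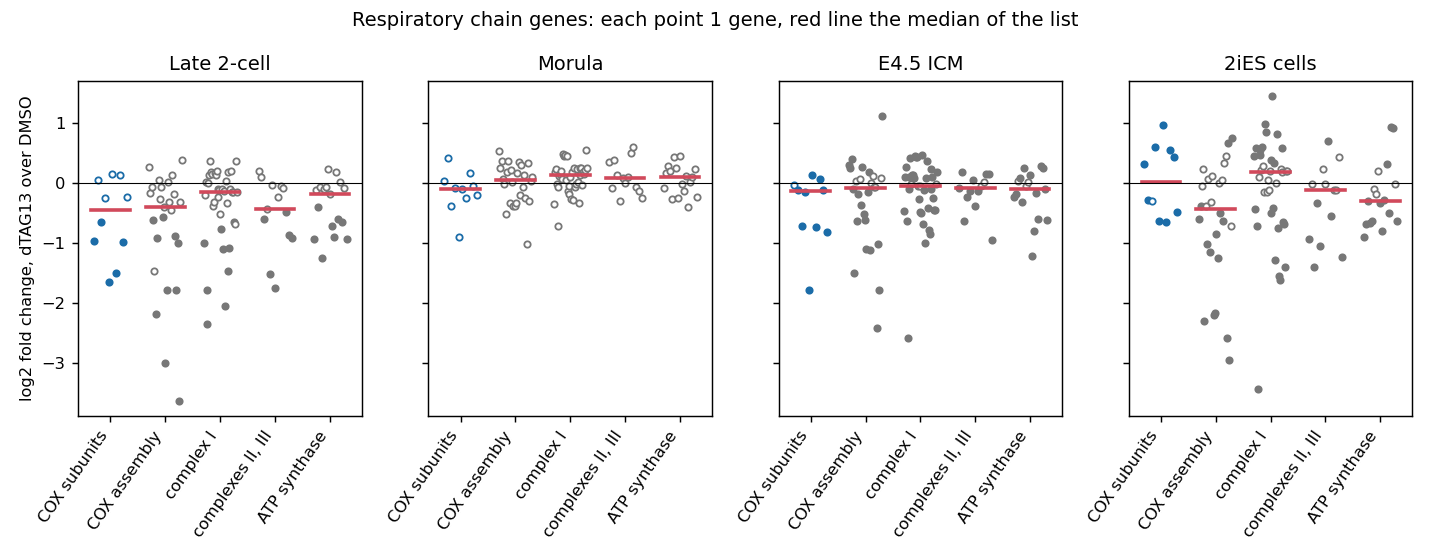
Log2 fold change with dTAG13 of each gene in 5 lists (nuclear cytochrome c oxidase subunits in blue; assembly factors, complex I, complexes II and III and ATP synthase in grey) at the 4 stages, with the list medians as red lines (filled points, adjusted p under 0.05; open points, not). At the late 2-cell stage all filled points lie below 0, in morulae no point is filled, and in 2iES cells the subunits spread from -0.65 to 0.97.

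The members did not move as 1 block across the 18 libraries. As a description, over libraries that share stages, treatment and depth, the Pearson correlation of log2(TPM + 1) ran from -0.14 (*Cox7b* with *Cox8a*) to 0.96 (*Cox6c* with *Cox7c*). *Cox8a* stood apart from most, with values from -0.14 to 0.64. Outside the family, among 6369 genes with a mean of at least 10 TPM, the 3 genes with patterns most like that of *Cox6b1* were *Nubp1* (0.960), *Ruvbl2* (0.955) and *Cdc123* (0.947). For *Cox4i1* they were *Hat1* (0.984), *Mrps31* (0.980) and *Rps23-ps1* (0.978).

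On GRCm38 the members lie on 9 chromosomes. *Cox6b1* (ENSMUSG00000036751.7) spans chr7:30616861-30626151, *Cox7a2* (ENSMUSG00000032330.7) chr9:79755361-79759878 and *Cox8a* (ENSMUSG00000035885.5) chr19:7215153-7217616, these 3 on the minus strand, while *Cox5b* (ENSMUSG00000061518.11) spans chr1:36691449-36693681 on the plus strand. *Cox4i1* (ENSMUSG00000031818.12, chr8:120668222-120674207, plus strand) shares 9.94% of its exonic bases with the antisense gene *Emc8*, *Cox5a* 12.8% with *Gm26631* and *Cox6c* 7.01% with *Vps13b*. The library kit keeps no strand, so these reads cannot be told apart. Between 0% (*Cox8a*) and 24.5% (*Cox7c*) of a member's 31-base words also occur in other genes, and merging the genes that share at least 10% of them left the number of members called at every stage as it was.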

How the data were processed

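RNA was measured in 18 of the 45 samples of the series, amplified by SMART-Seq v4 and sequenced without strand. Per the labels, reads were trimmed with Trimmomatic 0.39 and set against GRCm38, and the authors ran STAR and RSEM. The deposited tables give RSEM expected counts, TPM and FPKM for 55385 genes, of which 55144 were named through GENCODE. Expected counts were rounded, filtered at 10 in at least 3 libraries (late 2-cell) or 2 (other stages), scaled by TMM and tested with edgeR 4.0.16 (quasi-likelihood, each stage on its own, Benjamini-Hochberg over all genes). Differences between stages were interaction terms, and DESeq2 1.42.0, limma 3.58.1, other scalings, no filter, a replicate block and each library left out were the alternatives. Fits were also run on counts simulated with a set spread, which cannot show whether the spread estimated from the libraries is right. R 4.3.3 and Python 3.11.15 were used.

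The members and gene lists were chosen with earlier results of these data known. Named genes were the 10 members, *Gabpa*, the alternative forms, *mt-Co1* to *mt-Co3*, at each stage up to 3 assembly factors in each direction with the largest change past the threshold and without overlap between groups, and for *Cox6b1* and *Cox4i1* the 3 genes most alike. Of the marker lists *Oosp1* and *Tnfaip6* were named for passing the threshold, and *Inhba* and *Ptx3* for not being detected with DMSO. The deposited posterior SD columns, a score of the certainty of each estimate that the authors obtained from RSEM, entered no test. Binding and accessibility samples were not used here. Intervals cover the spread between libraries at a 95% level.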

Additional observations from a re-analysis of the deposited data

Results flagged for a closer look

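The change with dTAG13 differed between stages for the members below, by a test of the difference itself (edgeR, adjusted over all genes). Each value is the log2 fold change at the first stage minus that at the second. Between late 2-cell embryos and morulae it was -1.32 for *Cox7a2*, -1.06 for *Cox4i1* and -0.99 for *Cox7c*. Between late 2-cell embryos and ICM it was -0.93 for *Cox4i1*, -0.85 for *Cox7c*, -0.76 for *Cox7a2* and 0.59 for *Cox8a*. Between morulae and ICM it was 0.85 for *Cox6b1*, 0.61 for *Cox8a* and 0.51 for *Cox5a*, and none of these 3 passed when any 1 of the 4 ICM libraries was left out.

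Between ICM and 2iES cells the difference was -1.16 for *Cox6b1*, -0.84 for *Cox6c*, -0.77 for *Cox6a1*, -0.57 for *Cox7c*, -0.50 for *Cox7b*, -0.44 for *Cox5b* and -0.37 for both *Cox4i1* and *Cox8a*. The last 3 genes passed in 4, 5 and 5 of 14 alternative fits. In these 8 the ICM value was the lower one. Stage, cell source, dose (1 μM for embryos, 0.5 μM for ES cells) and length of treatment (84 to 100 hours post fertilization for the ICM, 24 hours for ES cells) cannot be told apart there. Between embryo stages the stage, the window of treatment and the material collected cannot be told apart either.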

How the results depend on the processing

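In late 2-cell embryos *Cox6b1*, *Cox7a2*, *Cox4i1* and *Cox7c* were lower past the threshold in all 18 alternative fits, as were *Cox6b1*, *Cox8a*, *Cox7a2* and *Cox5b* in all 16 of the ICM. Members at the study's cut-offs numbered 2 to 4 at the late 2-cell stage with a library left out (4 without dTAG13 replicate 1). In morulae 1 member (*Cox6b1*) was lower in place of 0 with library totals, no filter, DESeq2, the replicate block or all 18 libraries in 1 fit, and 0 to 1 with a library left out (1, also at the study's cut-offs, without DMSO replicate 2). *Cox5a* made 1 higher with all 18. In the ICM 4 in place of 7 were lower with upper quartile scaling, the test against 1.5-fold or all 18, and the 2 higher became 1 with DESeq2, 0 with the latter pair and 1 to 2 with a library left out. In 2iES cells 4 lower became 1 with upper quartile scaling, 0 at 1.5-fold, 2 with library totals without mitochondrial genome genes (chosen after seeing the data) and 1 to 5 with a library left out, and 5 higher became 1 at 1.5-fold and 3 to 5.

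Members that differed between morulae and ICM numbered 0 to 5 with a library left out. Between ICM and 2iES cells 8 became 4 with all 18 libraries, 5 with RLE scaling, 5 with the replicate block and 5 to 9 with a library left out. For DMSO levels, 5 members lower in ICM than morulae became 1 with library totals and 0 with log2(TPM + 1), and the 1 higher became 3 and 4, 2 with no filter and 0 with the replicate block. A library left out gave 0 to 7 lower and 0 to 4 higher, with 0 of each without either ICM library. In 2iES cells against ICM 8 higher became 4 and 3 with those scalings, and 0 lower became 1. These scalings moved the median gene by 0.266 and 0.469, and by -0.392 and -0.449, and decreases from 49.2% of calls to 38.4% and 30.4%, and from 51.8% to 67.8% and 71.7%. Upper quartile scaling moved the median by 0.118, 0.103 and 0.182 at the late 2-cell stage, in the ICM and in 2iES cells.

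Signs turned in the following fits. In late 2-cell embryos *Cox5a* came to -0.01 without DMSO replicate 2. In morulae *Cox4i1* came to -0.05 with library totals and -0.06 and -0.07 with a library left out, *Cox6c* to 0.13 and 0.01 (range from -0.30), *Cox7c* to 0.15 and 0.17 (range from -0.28) and to 0.03 with all 18, and *Cox6a1* to 0.08 (range from -0.22). In the ICM *Cox4i1* came to 0.04 with library totals, 0.07 with upper quartile scaling (adjusted p = 0.00517) and 0.04 and 0.01 with a library left out. Among DMSO levels past the threshold log2(TPM + 1) gave 0.14 for *Cox4i1*, 0.06 for *Cox5a* and *Cox6c* and 0.04 for *Cox7a2* (ICM less morula), and -0.10 for *Cox6a1* and *Cox7b* (2iES less ICM). The cause was not tested. Sharing the spread over all 18 libraries was extended to genes other than the members after seeing the data.

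Replicate numbers paired no libraries: deviations of same-numbered libraries correlated by 0.05, 0.12 and 0.10 at the late 2-cell stage (each highest with its own number, a hint from the data only), 0.03 in morulae, -0.05 in the ICM and -0.23 in 2iES cells, where crossed numbers, added after seeing the data, gave 4 lower and 5 higher. The planned merging of genes that largely share a member's sequence was not run, since no gene shared more than 19.3% of a member's 31-base words.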

Other observations

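*Ndufa4*, an accessory subunit of the enzyme first assigned to complex I, was singled out after its values were seen. In 2iES cells it went from 2325 and 2431 TPM with DMSO to 4687 and 4914 TPM with dTAG13, or 1.11 higher on the log2 scale (SE 0.093, adjusted p = 0.000186, edgeR). The values of the groups lie far apart. In the ICM it had 857 and 837 TPM against 1017 and 991 TPM, a log2 fold change of 0.22 (adjusted p = 4.53e-09, or 0.241 with the shared spread, edgeR). Late 2-cell embryos had 506, 343 and 515 TPM against 349, 325 and 385 TPM and the groups overlapped.

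*Cycs*, which encodes the somatic cytochrome c that feeds electrons to the enzyme, and *Cox17*, which carries copper to it, were also named after their values were seen. *Cycs* had 91.5 and 94.2 TPM in DMSO ICM and 153 and 151 TPM with dTAG13, and 154 and 181 TPM against 270 and 282 TPM in 2iES cells. Its log2 fold change was 0.03 at the late 2-cell stage and 0.42 in morulae (adjusted p = 0.878 and 0.351, edgeR). *Cox17* had 391, 345 and 340 TPM against 95.3, 117 and 96.6 TPM at the late 2-cell stage (log2 fold change -1.78), 1207 and 1188 TPM against 588 and 584 TPM in the ICM (-1.09) and 1214 and 1107 TPM against 587 and 603 TPM in 2iES cells (-0.84). In morulae *Cox17* had 1548 and 1268 TPM against 1050 and 1224 TPM.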
